A study of Mus musculus with 6 samples.

Results

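The genes described here encode 10 adaptor and scaffold proteins of Abl kinase and integrin signalling: Crk, Crkl, Nck1, Nck2, Bcar1, Pxn, Cttn, Dok1, Cbl and Cblb. They were taken by gene symbol and are 10 of 18193 genes with a probe set that the array annotation assigns to 1 gene only. Each gene is represented by its brightest such probe set over all arrays, and its other probe sets are given beside it. The arrays came from mouse embryonic fibroblasts (cultured connective tissue cells) of the C57BL/6 strain at 14 days of gestation, with male and female material pooled. Of the 6 arrays, 3 were labelled abl/arg knockout, a label that names the non-receptor tyrosine kinases encoded by Abl1 (c-Abl) and Abl2 (Arg), and 3 were wild-type. Both groups were grown in DMEM with 10% fetal bovine serum. The sources used here give neither the kind of knockout allele nor the number of lines, nor whether cells were passaged or immortalized. Since no label says whether a group's 3 arrays were separate cultures, the spread behind each p-value is that between arrays and may be technical.

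When integrins engage the matrix or a growth factor receptor is activated, Src and Abl kinases put phosphate on tyrosines of scaffold proteins such as p130Cas and paxillin. Adaptors with an SH2 domain, Crk, Crkl, Nck1 and Nck2, bind those tyrosines and carry partners on their SH3 domains, among them Abl itself and activators of Rac, Rap1 and actin branching. Cortactin stabilizes the branched actin that follows, Dok1 brings in a brake on Ras, and the ubiquitin ligases Cbl and Cblb end the signal by marking active kinases for removal. Abl kinases are known to phosphorylate several of these proteins. The arrays measured RNA only, so none of these phosphorylations was observed.

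The upstream sequences of 2 paralog pairs are shown because the members of one pair moved the same way on these arrays and those of the other pair moved in opposite directions. Each is the run of 250 bases before the annotated gene start from RefSeq (GRCm38.p6), written 5′ to 3′ on the gene's strand, with matches to short motifs in capitals. The motifs searched on both strands were the GC box GGGCGG, the CCAAT box CCAAT, the cyclic AMP response element TGACGTCA, the AP-1 site TGANTCA and the ETS site CGGAAG. Crk lies at chr11:75679009-75679258, plus strand, Crkl at chr16:17451735-17451984, plus strand, Cbl at chr9:44234047-44234296, minus strand and Cblb at chr16:52031299-52031548, plus strand.
Crk: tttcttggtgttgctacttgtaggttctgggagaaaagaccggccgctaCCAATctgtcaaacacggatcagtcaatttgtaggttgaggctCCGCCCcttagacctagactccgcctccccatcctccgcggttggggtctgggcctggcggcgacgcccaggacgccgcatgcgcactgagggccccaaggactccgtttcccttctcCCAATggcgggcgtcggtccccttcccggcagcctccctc
Crkl: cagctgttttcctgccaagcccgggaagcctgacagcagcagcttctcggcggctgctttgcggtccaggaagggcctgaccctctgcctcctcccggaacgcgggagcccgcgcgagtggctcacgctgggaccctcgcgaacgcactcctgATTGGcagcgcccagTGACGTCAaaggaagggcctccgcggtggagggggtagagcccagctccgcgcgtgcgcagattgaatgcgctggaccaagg
Cbl: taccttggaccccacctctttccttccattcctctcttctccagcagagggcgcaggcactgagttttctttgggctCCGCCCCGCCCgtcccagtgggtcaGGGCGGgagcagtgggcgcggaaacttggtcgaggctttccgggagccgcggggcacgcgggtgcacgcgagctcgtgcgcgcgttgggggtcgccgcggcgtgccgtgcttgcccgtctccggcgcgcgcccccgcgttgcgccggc
Cblb: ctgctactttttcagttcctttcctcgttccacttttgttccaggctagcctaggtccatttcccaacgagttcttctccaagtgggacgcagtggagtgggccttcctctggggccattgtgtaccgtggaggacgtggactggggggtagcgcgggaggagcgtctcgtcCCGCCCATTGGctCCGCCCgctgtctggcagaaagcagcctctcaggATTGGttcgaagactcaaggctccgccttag

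Crk held 1 GC box and 2 CCAAT boxes, and Crkl held 1 CCAAT box and the cyclic AMP response element but no GC box. Cbl held 3 GC boxes, a pair of which overlap, and no CCAAT box, whereas Cblb held 2 of each, with a GC box and a CCAAT box side by side in 1 run of capitals. The promoter table held 9 entries for 7 of the genes and none for Pxn, Cttn and Dok1. A GC box was found in 7 and a CCAAT box in 7 of those 9, against 32.7% and 33.8% of all 32851 promoters of that length. The cyclic AMP response element was in 1 of the 9 against 1.55% of all promoters, and the AP-1 and ETS letters, present in 6.75% and 13.6% of all, were in none. Bcar1 and Nck1 had more than 1 entry each, and the set of all promoters was not matched to these genes by signal. A match is a run of letters and was not tested as a binding site.

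The genes of the labelled knockout were read first. The brightest Abl1 probe set had signals of 177.7, 170.6 and 161.3 on the arrays labelled knockout, against 181.6, 183.0 and 189.9 on the wild-type arrays (log2 difference -0.11, limma adjusted p = 0.0933). The brightest Abl2 probe set had 266.6, 252.8 and 243.0 against 245.4, 262.3 and 260.5 (log2 difference -0.01, limma adjusted p = 0.874). Dimmer Abl1 probe sets were higher in the labelled knockout, at 22.9 ± 2.34 against 16.05 ± 1.41 (SD, n = 3 each; 0.28, limma adjusted p = 0.00586) and 10.6 ± 0.54 against 6.99 ± 1.12 (0.21, limma adjusted p = 0.0012). The other Abl2 probe sets gave 0.05 (limma adjusted p = 0.567) and -0.08 (limma adjusted p = 0.313). The brightest Abl1 probe set passed as lower under median scaling (-0.16), hybridization spike scaling (-0.37) and with chromosomes centred (-0.16), and as higher under poly-A spike scaling (0.34) and with probe sets averaged (0.13). Where the probes lie relative to the deleted parts was not analysed here, so these values do not check the deletion, and the first group is called "labelled knockout" throughout. Differences are labelled knockout minus wild type on the scale log2(signal + 16), which understates changes of dim genes.

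Array medians ran from 13.4 to 14.7, and across genes the lowest correlation within a group was 0.998 and the highest between groups 0.904. Fibroblast markers summed to 21763 to 22855 on the arrays labelled knockout and 13912 to 14681 on the wild-type arrays over 12 genes. They did not move together: Pdgfra averaged 1789 against 9.99 and Col3a1 14.9 against 1934, while Thy1 was near the floor in both groups (7.59 and 8.22). The 8 leukocyte markers summed to 540.0 to 576.8 against 168.0 to 183.3, with Cd14 at 400.8 against 99.9, Lyz2 at 72.4 against 9.11 and Cd68 at 41.0 against 19.3. Csf1r was at 30.3 against 34.5, and Ptprc (2.64 against 2.59), Tyrobp, Adgre1 and Itgam were near the floor in both groups. The 4 neural markers summed to 431.7 to 520.6 against 97.9 to 116.6, with Sox2 at 236.2 against 3.67 and Nes at 228.6 against 40.6, but Tubb3 was lower, at 8.14 against 52.9, and Gfap was at 11.4 against 13.0. The 5 endothelial markers summed to 37.9 to 42.4 against 39.7 to 47.8, the 5 epithelial ones to 37.6 to 44.0 against 73.4 to 90.3 and the 4 skeletal muscle ones to 47.2 to 55.0 against 82.9 to 98.5. The beta-actin control had a 3' over 5' log2 ratio of 0.36 ± 0.01 against 0.47 ± 0.03 (SD, n = 3 each; exact permutation p = 0.1, the smallest possible), and the Gapdh control one of -0.17 ± 0.04 against -0.15 ± 0.04 (exact permutation p = 0.6). The part of cell makeup and RNA quality in the differences below was not tested, and in bulk RNA fewer cells of a type cannot be told apart from less RNA per cell.

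All 10 genes differed between the groups, 6 of them higher and 4 lower in the arrays labelled knockout, by small amounts. Cttn, Pxn, Bcar1, Cblb, Dok1 and Nck1 rose, and Cbl, Crkl, Crk and Nck2 fell (limma adjusted p under 0.05 for each). Of all genes tested, 59.8% passed the same threshold, 24.3% as higher and 35.5% as lower. Of the 11803 genes brighter than the median probe set in at least 1 group, 80.3% passed. A full count of calls is thus little above what bright genes showed in general. None of the 10 changed at least 2-fold, against 15.9% of all genes and 24.5% of the brighter ones. The same 2894 genes make up both shares, since a gene could enter the brighter set through its higher group alone. The shares of the brighter set are therefore no independent reference. The sizes of the log2 differences ran from 0.15 for Nck1 to 0.73 for Cbl. A difference at least as large as that of Cbl was found in 23.6% of all genes and 36.4% of the brighter ones. The median of the 10 differences was 0.26, beside -0.03 for all genes, and the median size was 0.46, beside 0.20 for all genes and 0.50 for the brighter ones. The values of the groups did not overlap for any of the 10, as for 64.7% of all genes.

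**Figure D1:**
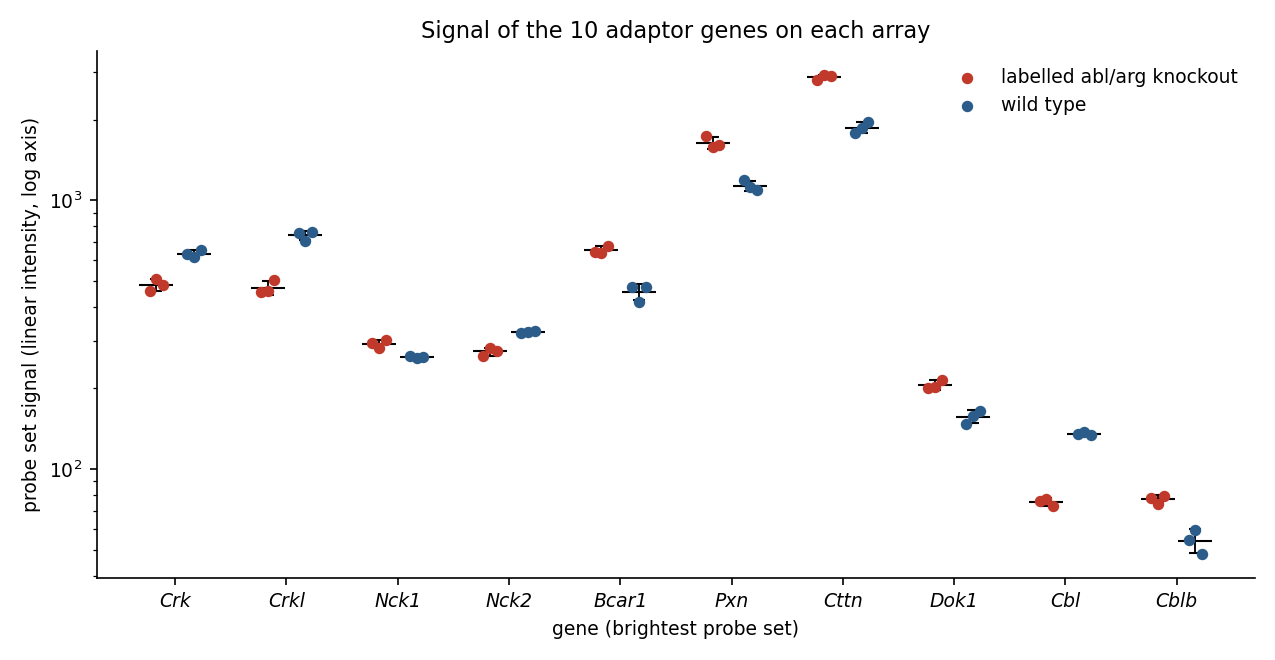
Probe set signal (linear intensity on a log axis) of the 10 genes on each array, where each point is an array, each dash a group mean and each bar its SD (n = 3), with the arrays labelled knockout to the left of the wild-type arrays. The points of the groups are apart for every gene, with Cbl at 72.6 to 77.5 in the labelled knockout against 134.4 to 136.9 in wild type and Nck1 at 283.0 to 301.9 against 258.8 to 262.4.

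Among the SH2 and SH3 adaptors, Crk and its paralog Crkl both fell. Crk, the cellular form of a viral oncogene, had signals of 459.4, 508.4 and 483.1 on the arrays labelled knockout, against 629.4, 614.1 and 652.8 on the wild-type arrays. Every labelled knockout array lay below every wild-type array, with a log2 difference of -0.38 ± 0.05 (SE; 95% interval -0.48 to -0.27, limma adjusted p = 1.27e-05). Crkl, a well-known substrate of the BCR-ABL fusion kinase, had 456.7, 458.7 and 504.6 against 757.3, 707.6 and 761.8. It was lower on every array labelled knockout than on any wild-type array, with a log2 difference of -0.63 ± 0.05 (95% interval -0.74 to -0.52, limma adjusted p = 1.62e-07). That of Crkl was -0.34 with probe sets averaged and -0.23 with chromosomes centred, and passed in both. Chromosome medians were taken over genes with a mean log2 signal above 7. The median difference was -0.40 for chromosome 16, where Crkl lies, and 0.14 for chromosome 11, where Crk lies.

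The adaptors Nck1 and Nck2, which link phosphotyrosines to actin nucleation through N-WASP, moved apart by small amounts. Nck1 had 293.7, 283.0 and 301.9 in the labelled knockout, against 263.2, 258.8 and 262.4 in wild type, the smallest change of the 10 genes (0.15 ± 0.04, 95% interval 0.06 to 0.25, limma adjusted p = 0.0101). Nck2 had 263.9, 282.4 and 275.5 against 321.7, 323.7 and 325.8. Its wild-type values lay close together and above every labelled knockout value (-0.23 ± 0.04, 95% interval -0.33 to -0.13, limma adjusted p = 0.000622).

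The scaffold genes rose. Bcar1 encodes p130Cas, whose substrate domain carries many tyrosines that Crk binds when they are phosphorylated. Its signals were 642.0, 636.5 and 677.9 in the labelled knockout, against 475.2, 419.9 and 476.3 in wild type (0.50 ± 0.05, 95% interval 0.38 to 0.62, limma adjusted p = 3.03e-06). The median difference was -0.49 for the genes of its chromosome, 8, with a mean log2 signal above 7. Such medians ran from -0.72 for chromosome 4 to 0.47 for chromosome 14, and what they reflect was not tested. Pxn encodes paxillin, the focal adhesion scaffold that binds FAK, vinculin and Crk, and had 1730, 1580 and 1602 against 1191, 1121 and 1094 (0.52 ± 0.05, 95% interval 0.42 to 0.62, limma adjusted p = 6.35e-07). All labelled knockout values of both genes lay above all wild-type values.

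Cttn, which encodes the actin-binding protein cortactin, a substrate of Src and Abl kinases, had the highest difference of the 10. Its signals were 2812, 2926 and 2893 in the labelled knockout, against 1788, 1853 and 1958 in wild type (0.62 ± 0.04, 95% interval 0.53 to 0.71, limma adjusted p = 4.4e-08). Dok1, which encodes a docking protein that recruits the Ras GTPase-activating protein, had 199.6, 202.8 and 215.4 against 147.8, 157.6 and 164.9 (0.36 ± 0.06, 95% interval 0.24 to 0.49, limma adjusted p = 0.000112). Neither gene's values overlapped between the groups.

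The ubiquitin ligase genes Cbl and Cblb changed in opposite directions. Cbl had 76.0, 77.5 and 72.6 in the labelled knockout, against 134.8, 136.9 and 134.4 in wild type. It had the largest change of the 10, its mean signal being 0.557 of that in wild type (log2 difference -0.73 ± 0.06, 95% interval -0.86 to -0.60, limma adjusted p = 3.19e-07). Cblb had 78.2, 74.4 and 79.7 against 54.5, 59.6 and 48.4 (0.42 ± 0.08, 95% interval 0.24 to 0.59, limma adjusted p = 0.000577). Cblb lies on chromosome 16 as Crkl does and rose where Crkl fell.

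Whether the paralogs of a pair moved unequally was tested on their log2 ratio within each array, from which the scaling of the array largely cancels. The log2 ratio of Cbl to Cblb was -0.03 ± 0.08 in the labelled knockout and 1.11 ± 0.10 in wild type (SD, n = 3 each), a difference of -1.15. That of Nck1 to Nck2 was 0.09 ± 0.08 against -0.29 ± 0.02, a difference of 0.38, and that of Crk to Crkl was 0.03 ± 0.10 against -0.23 ± 0.03, a difference of 0.26. The groups did not overlap for any of the 3 pairs, and each gave an exact two-sided permutation p of 0.1, also 0.1 after Benjamini-Hochberg adjustment over the 3, which is the smallest that 3 arrays against 3 allow. The direction of the unequal fall of Crk and Crkl depended on the processing. With all probe sets of a gene averaged, dim ones included, the difference was -0.040. With chromosomes centred it was -0.29. Ratios compare changes and say nothing of which paralog was more abundant, since probe sets differ in brightness for equal RNA.

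The annotation gave the 10 genes 32 probe sets, of which 26 were brighter than the median in at least 1 group. Of these, 16 were not the brightest of their gene. Among them 15 had the direction of the brightest and 12 also passed (limma over all probe sets). Of all probe sets, dim ones included, 52.2% passed, and of the genes brighter than the median 80.3% passed. Crk was lower on 4 of 4 bright probe sets, at -0.38 to -0.61, and Crkl on 3 of 3, at -0.28 to -0.63. The Crkl probe sets besides the brightest were only just above the median, averaging 17.2 and 14.9 in the labelled knockout against 28.8 and 21.4 in wild type. Cttn was higher on 4 of 4, at 0.62 to 0.88, the ones besides the brightest averaging 2381, 360.4 and 149.9 in the labelled knockout against 1326, 188.0 and 86.6 in wild type. The other bright Cbl probe set had 52.6, 62.6 and 59.2 against 94.1, 97.6 and 92.6 (-0.58, limma adjusted p = 9.85e-06), and the other Bcar1 probe set had 193.2, 184.9 and 211.3 against 111.2, 107.6 and 120.8 (0.72, limma adjusted p = 6.45e-07).

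The probe sets of Pxn disagreed. Its second probe set rose with the brightest (420.3 ± 21.3 in the labelled knockout against 278.7 ± 21.8 in wild type, SD, n = 3 each; log2 difference 0.57, limma adjusted p = 3.45e-06). The third, also brighter than the median, had the opposite direction, at 20.4 ± 1.90 against 24.8 ± 0.74 (-0.17, limma adjusted p = 0.0729). The second Cblb probe set, at 25.8 ± 2.85 against 23.1 ± 1.96, gave 0.10 (limma adjusted p = 0.352), so among bright probe sets the rise of Cblb rests on the brightest alone. A Cblb probe set near the floor was also higher (9.91 ± 1.82 against 3.98 ± 0.42, limma adjusted p = 1.33e-05). The second Nck2 probe set gave -0.12 (limma adjusted p = 0.276), and those of Nck1 gave 0.20 (limma adjusted p = 0.0443) and 0.06 (limma adjusted p = 0.59). Dok1 had 1 probe set. The bright Cttn probe sets and the brightest of Nck1, Bcar1 and Pxn have identifiers ending in a or s, which mark probes shared by several transcripts. With probe sets of an x, s or a ending removed, Nck1 was at 0.06 and no longer passed (limma adjusted p = 0.572), and Cttn was left with 1 probe set, at 2.16 ± 0.25 against 2.23 ± 0.01 signal units and a log2 difference of -0.0054.

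**Figure D2:**
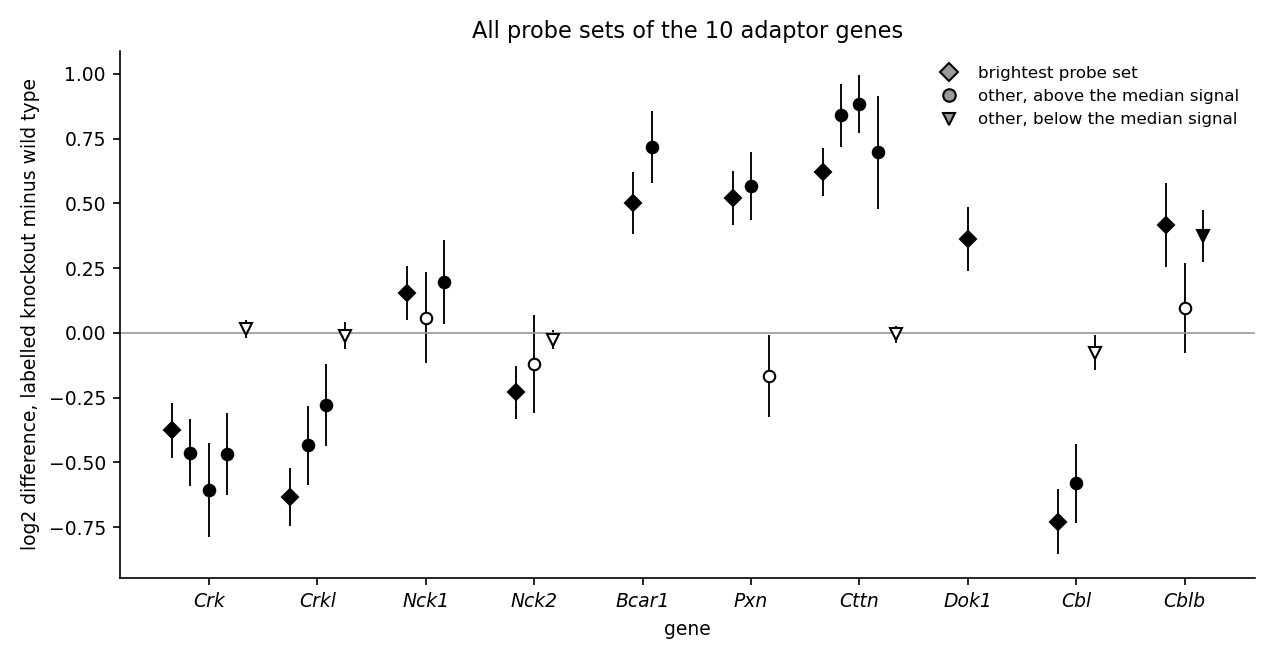
Log2 difference of signal + 16, labelled knockout minus wild type, for all 32 probe sets of the 10 genes with 95% intervals. Filled marks passed the threshold of 0.05 over all probe sets. The 4 bright Crk probe sets lie at -0.38 to -0.61 and the 4 bright Cttn probe sets at 0.62 to 0.88, while the third Pxn probe set, at -0.17, lies opposite to the other two.

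Directions were checked under other scalings of the arrays. Poly-A spike controls, added to the RNA before labelling, differed by -0.45 on the log2 scale (labelled knockout minus wild type), and hybridization spike controls, added after it, by 0.26 (exact permutation p = 0.1 each, the smallest possible). Scaling on them moved the median difference of all genes, -0.03 as deposited, to 0.42 and to -0.29, and moved all genes of an array together. Cttn, Pxn, Bcar1, Dok1 and Cblb stayed above 0 and Cbl and Crkl below 0 under quantile, median, poly-A spike and hybridization spike scaling. Crk (0.073) and Nck2 (0.22) changed sign under poly-A spike scaling and Nck1 (-0.10) under hybridization spike scaling. Nck2 then passed as higher (limma adjusted p = 0.0275), whereas the turned Crk and Nck1 did not pass (limma adjusted p = 0.462 and 0.194). The calls of Dok1 (0.10) and Cblb (0.16) were lost under hybridization spike scaling, that of Crkl (-0.18) under poly-A spike scaling and that of Nck1 (0.10) under median scaling. Nck2 was at -0.07 with chromosomes centred and no longer passed (limma adjusted p = 0.208). Centring chromosomes put Bcar1 at 0.99, Dok1 at 0.65 and Nck1 at 0.26, averaging probe sets put Cbl at -0.46, Pxn at 0.31 and Nck2 at -0.13, and an offset of 64 put Cblb at 0.26, each still past the threshold.

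**Figure D3:**
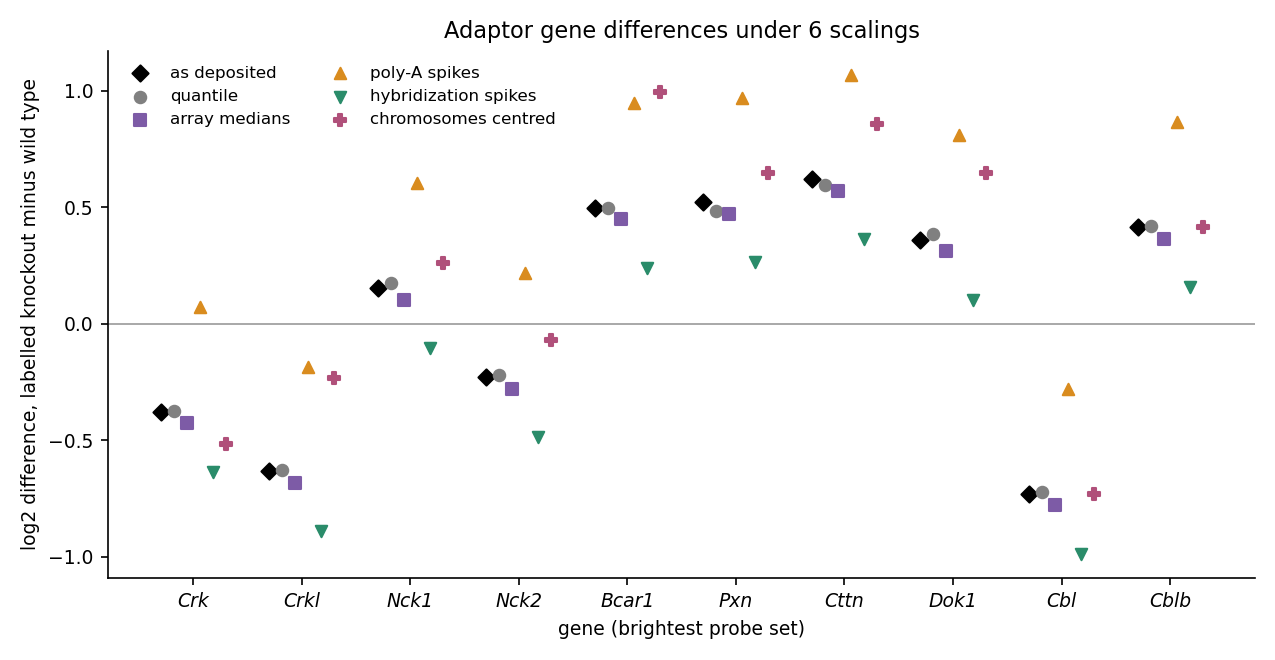
Log2 difference (labelled knockout minus wild type) of the brightest probe set of each gene as deposited and under 5 other scalings. Poly-A spike scaling shifts every gene up and hybridization spike scaling every gene down, so that Crk and Nck2 reach 0.07 and 0.22 and Nck1 reaches -0.10, while Cbl stays below 0 (-0.28 to -0.99) and Cttn above it (0.36 to 1.07).

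Partner genes of the 10 were read from a list in 6 groups, of which 67 of 72 genes were measured. Of these 23 rose, 26 fell and 18 did not pass, with a median of -0.03 and a median size of 0.36, and 10 changed at least 2-fold. Beside these, 24.3% of all genes rose, 35.5% fell and 15.9% changed at least 2-fold, the shares to set beside each group's counts below. Among the partners that fell, Cass4, Elmo3, Hcls1 and Gab3 were near the floor in both groups. With genes below the median in both groups left out, 23 partners rose and 22 fell. Among 14 partners of Crk and Cas, 4 rose and 7 fell (median -0.05). Rap1b, a small GTPase switched on downstream of Crk, rose to 4986 ± 243 in the labelled knockout, against 2072 ± 31.2 in wild type (SD, n = 3 each; 1.26), and Elmo2, a subunit of the Dock1 exchange factor for Rac, rose by 0.74 (104.3 ± 10.5 against 56.0 ± 3.61). Rap1a fell, at 897.1 ± 20.7 against 1443 ± 7.62 (-0.68), and so did Dock1, at 198.5 ± 7.51 against 339.8 ± 6.42 (-0.73). Bcar3, which binds p130Cas, fell by 1.23 (17.2 ± 4.09 against 61.6 ± 4.93), with a difference of -0.66 with probe sets averaged.

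Among 10 paxillin family members and partners, 6 rose and 2 fell (median 0.19). Tgfb1i1, which encodes the paxillin relative Hic-5, was at 149.6, 137.3 and 164.8 in the labelled knockout, against 10.5, 9.57 and 10.2 in wild type (2.67, limma adjusted p = 2.3e-11). Ptk2b, the FAK relative Pyk2, rose by 0.94, or 0.44 with probe sets averaged, and Vcl, vinculin, by 0.84, or 0.37 with chromosomes centred. Among 8 cortactin family members and partners 4 rose and 4 fell (median 0.15). The myosin light chain kinase gene Mylk rose by 3.10 (709.6 ± 55.4 against 68.5 ± 7.16), Asap1, a GTPase-activating protein for Arf, by 1.36 and the drebrin-like gene Dbnl by 0.84.

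Among 8 Dok family members and partners 1 rose and 2 fell (median -0.04). The gene that rose, Rasa1, encodes the Ras GTPase-activating protein that Dok1 binds, and was at 1553, 1504 and 1686 in the labelled knockout, against 290.4, 253.4 and 279.0 in wild type (2.46, limma adjusted p = 2.08e-12). Dok4 fell by 0.76 (38.5 ± 0.16 against 76.3 ± 7.24). Csk, the kinase that holds Src inactive, fell by 0.16 (limma adjusted p = 0.027), a direction that turned under poly-A spike scaling (0.29). The Csk call was lost with chromosomes centred (-0.054, limma adjusted p = 0.44) and without array 1 or 2 labelled knockout or without wild-type array 1 (limma adjusted p = 0.057, 0.0892 and 0.0919). Among 15 Nck, Grb2 and Shc adaptors and partners 5 rose and 4 fell (median -0.02). Grb14, an adaptor of the insulin receptor, was near the floor in wild type (305.2 ± 16.4 against 5.86 ± 0.95; 3.88, or 1.97 with probe sets averaged). Pak3, a Rac-activated kinase, rose by 1.47 and the adaptor Shc1 by 0.93, or 0.62 with probe sets averaged. Pak2 fell, at 186.6 ± 9.44 against 330.4 ± 3.83 (-0.77).

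Among 12 Cbl family members and partners 3 rose and 7 fell (median -0.23). Ubash3b, a phosphatase that binds Cbl, fell by 1.12 (18.3 ± 2.88 against 58.3 ± 6.50), and Cd2ap, an SH3 adaptor of Cbl, by 0.90 (151.0 ± 3.84 against 295.6 ± 13.1). Spry2, an inhibitor of receptor tyrosine kinase signalling that binds Cbl, rose to 292.3 ± 7.95, against 81.8 ± 5.28 in wild type (1.66, or 0.79 with probe sets averaged). With an offset of 64 the differences of dim partners were smaller, at 2.40 for Grb14, 1.53 for Tgfb1i1, -0.63 for Bcar3, -0.57 for Ubash3b, 0.51 for Ptk2b, 0.49 for Elmo2 and -0.45 for Dok4, and all 7 still passed. Elmo2 was at 1.21 with x, s and a probe sets removed. The counts of these lists were not tested against other genes.

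**Figure D4:**
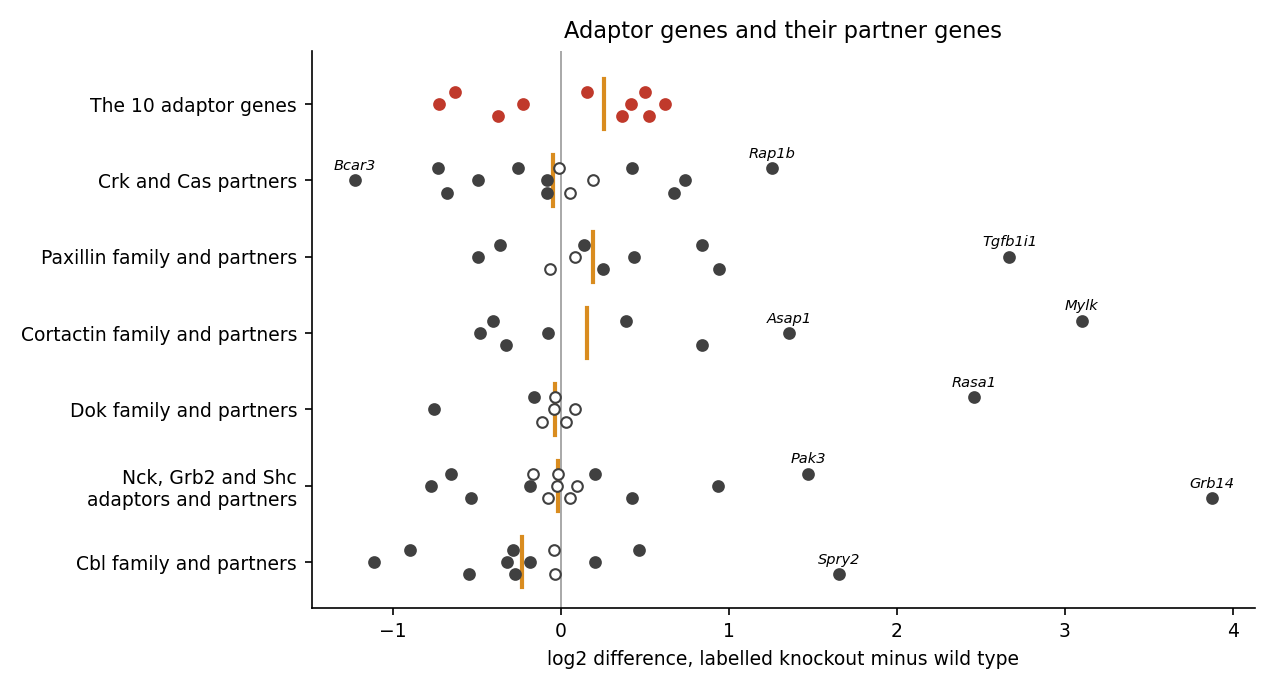
Log2 difference of signal + 16, labelled knockout minus wild type, for the 10 genes and the 67 measured partner genes in 6 groups. Filled points passed the threshold of 0.05 and bars are group medians. The 10 genes lie between -0.73 and 0.62, whereas partners reach 3.88 for Grb14, 3.10 for Mylk and -1.23 for Bcar3.

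The genes whose centred log2 signals over the 6 arrays lay closest to those of Cttn were Mcee, Ssh1 and Clip1, with root mean square differences of 0.012, 0.022 and 0.024 and log2 differences of 0.60, 0.60 and 0.62. Those closest to Cbl were Uchl5, Prr5 and Gk5, with 0.013, 0.015 and 0.023 and log2 differences of -0.74, -0.75 and -0.74. With only 2 groups of arrays, such likeness reflects mainly a like difference between the groups. The likeness depends on the probe set and the offset. With probe sets averaged Ssh1 was at 0.015, Clip1 at 0.17 and Uchl5 at -0.40. Prr5 was near the floor in the labelled knockout (3.24 against 16.4), and its difference was -2.04 with an offset of 1 and -0.26 with an offset of 64, where that of Cbl was -0.84 and -0.52.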

How the data were processed

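RNA of 6 mouse fibroblast arrays was labelled with biotin from 6 µg, per the labels' protocols. Each array has 1 deposited linear intensity per probe set. MAS5 is named in the submitters' processing notes, without version or scaling. Of the deposited intensities, 5.44% had decimals on 6 evenly spaced steps (within 0.0005), against 0.6% for even decimals. The steps were placed on the most frequent decimal. The sources used here state no step that would give such decimals, and their origin was not tested.

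Groups and replicate numbers came from the sample titles. Of 45101 probe sets (64 controls), 34945 had 1 gene and 34741 matched RefSeq names (GRCm38.p6) by Entrez number. Control probe sets and those with no gene or several genes did not enter the gene fit. The brightest probe set stood for each of 18193 genes. The two-sided test was limma's (version 3.58.1, R 4.3.3; lmFit, then eBayes with trend) on log2(signal + 16). Its p-values were adjusted by Benjamini and Hochberg's method across all genes, or, for further probe sets, across all non-control probe sets. The fit was tested on simulated data. "Rose" and "fell" mean an adjusted p under 0.05.

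The members and lists were chosen with earlier results of these data known. Named partners were, per group, up to 3 with the largest difference among those that passed, with Rap1a, Dock1 and Pak2 given beside them. Likeness was judged for the members with the highest and lowest difference. The closing section gives the alternatives. Figures were drawn with matplotlib 3.10.9.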

Additional observations from a re-analysis of the deposited data

How the results depend on the processing

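Each count and difference was recomputed under offsets of 1 and 64, quantile, median and spike scaling, dim genes left out, averaged or restricted probe sets, other variance models, array weights, centred chromosomes and without each array. Of 200 such values for the 10 genes, 190 kept direction and call, 6 lost the call and 4 reversed. Leaving out dim genes, other variance models and a block for replicate number left each difference as it was, so direction could not change there. Removing x, s and a probe sets left Crk, Crkl, Nck2, Dok1, Cbl and Cblb as they were. The reversals were Crk (0.073) and Nck2 (0.22) under poly-A spike scaling, Nck1 under hybridization spike scaling (-0.10) and Cttn once probe sets with an x, s or a ending were removed (-0.0054), which leaves Cttn 1 probe set with signals of 2.16 against 2.23. Of these reversals only that of Nck2 passed in the new direction, as higher (limma adjusted p = 0.0275). All 10 genes passed without any 1 array. Members higher numbered 3 under hybridization spike scaling, and members lower 1 under poly-A spike scaling.

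Partner genes under poly-A spike scaling numbered 47 higher and 8 lower, and 40 were lower under hybridization spike scaling. All genes under poly-A spike scaling numbered 13349 higher and 2747 lower, under hybridization spike scaling 2782 and 13446, and 9741 were lower under median scaling. Each spike scaling shifts every gene of an array by 1 amount. Poly-A spike scaling put Abl1 at 0.34, and averaging probe sets put it at 0.13, whereas it passed as lower under median scaling (-0.16), hybridization spike scaling (-0.37) and with chromosomes centred (-0.16). Abl2 was at 0.015 under quantile scaling, 0.44 under poly-A spike scaling, -0.27 under hybridization spike scaling, 0.15 with chromosomes centred and between -0.044 and 0.019 with 1 array left out. Csk was at 0.29 under poly-A spike scaling. Crk minus Crkl was at -0.040 with probe sets averaged and -0.29 with chromosomes centred. Chromosome centring left genes with a mean log2 signal of 7 or less, Cbl and Cblb among them, as they were. The cause of the other changes was not tested.

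Same-numbered arrays deviated together with correlations of 0.04, 0.12 and 0.17 across genes, so the numbers were not taken as pairs, although each array labelled knockout correlated best with its own number. With replicate number as a block all 10 genes passed, 49 partner genes passed, and 10944 of all genes passed, against 10873 without it. The number of arrays limits the precision.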
